A study of Mus musculus with 933 samples.

Results

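The transcripts of 10 genes used as markers of the primitive endoderm were followed in single mouse embryos made with sperm of different origin. The genes are Gata6, Gata4, Sox17, Sox7, Pdgfra, Dab2, Lama1, Col4a1, Lrp2 and Sparc, taken by name from the 23845 genes listed in each of 12 expression tables. All 10 were found in all 12 tables. The tables hold 933 embryos of strain FVB in 33 groups of 8 to 42 embryos. Every embryo came from an egg into which a sperm had been placed directly (intracytoplasmic sperm injection, ICSI) and was cultured in KSOM medium.

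The groups differ by sperm source, by injected RNA and by stage. The sperm sources were the testis, the caput epididymis, the first segment of the duct in which sperm mature, and the cauda epididymis, its last segment and the site of storage. In the injection groups an RNA was delivered 3 h after ICSI into zygotes made with caput sperm, and the labels name it EpiM small RNA, EpiM miRNA, EpiM tRF (fragments of transfer RNA) or GFP. The embryos were 2-cell embryos at 18, 24 and 28 h, 4-cell embryos, 8-cell embryos, morulae and blastocysts. The tables are called cohorts here: blastocyst cohorts 1 and 2 compared caput with cauda sperm, cohort 3 compared EpiM small RNA and GFP injections with cauda sperm, cohort 4 compared EpiM miRNA, EpiM tRF and no injection after caput sperm with cauda sperm, and cohort 5 compared testis with cauda sperm. Morulae were made with caput or cauda sperm in the first cohort and with testis or cauda sperm in the second. The labels do not say which embryos share a male or a clutch of eggs, so p-values measure only the spread between these embryos.

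The primitive endoderm is the second extraembryonic lineage of the mouse blastocyst. It separates from the epiblast within the inner cell mass under the influence of FGF signalling, when cells that keep GATA6 go on to switch on Sox17, Gata4 and Sox7 in turn, and it then lines the blastocoel and forms the yolk sac endoderm. Its cells secrete the laminin and collagen IV of a basement membrane and take up proteins through endocytic receptors. GATA6 is present in most cells of the embryo before the lineages part, and Dab2 and Lrp2 transcripts are not exclusive to the primitive endoderm.

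Abundance is given as TPM, a unit of transcript level that is scaled for transcript length and for the total of each library. It contains no read counts, so the depth behind a value is unknown and precision rests on the spread between embryos. Between 4864 and 12629 genes reached 1 TPM per library, with a median of 10627, and 24 libraries lay more than 3 scaled median absolute deviations under the median of their table. No pair of libraries was identical. A gene was called at an adjusted p under 0.05 from limma, with Benjamini-Hochberg adjustment over all genes tested in a comparison. Differences are on the scale of log2(TPM + 1) and adjusted for the experimental session, the day given in the sample labels, and they understate the change of genes near 1 TPM. A session is counted as higher or lower by the means of log2(TPM + 1), which can differ in sign from the means of TPM. TPM are shares of a whole embryo's RNA, so fewer cells of a type and less RNA per cell cannot be told apart.

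Of the 10 genes, 5 have 6 start sites in the RefSeq promoter table (GRCm38.p6), and the 250 bases before the start are shown for Dab2 and Pdgfra. The Pdgfra window lies inside the annotated span of that gene, 75151322 to 75198206 on chromosome 5. The windows were searched on both strands for GATAA, the core read by GATA factors. They were likewise searched for ACAAT, a core read by SOX factors. Of 32851 promoters, 22.6% hold the first and 27.7% the second. Capitals mark the only match, GATAA, which lies 178 to 174 bases before the Dab2 start. The Dab2 window is chr15:6299539-6299788 and the Pdgfra window chr5:75152001-75152250, both on the plus strand, and a match is only a run of letters.
Dab2: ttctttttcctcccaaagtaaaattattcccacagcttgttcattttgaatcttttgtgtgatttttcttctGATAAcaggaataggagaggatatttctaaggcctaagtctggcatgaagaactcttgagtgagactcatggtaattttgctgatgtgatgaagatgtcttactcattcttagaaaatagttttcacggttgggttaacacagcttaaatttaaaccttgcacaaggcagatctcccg
Pdgfra: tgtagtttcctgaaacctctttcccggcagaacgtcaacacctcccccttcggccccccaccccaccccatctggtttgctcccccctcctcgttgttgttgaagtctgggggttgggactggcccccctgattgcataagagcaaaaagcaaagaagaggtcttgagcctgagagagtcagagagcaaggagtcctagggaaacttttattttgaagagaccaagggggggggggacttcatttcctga

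The 10 genes did not appear together over preimplantation development. Because the tables were normalized separately, levels at different stages are set side by side as descriptions, without a test. Gata6, the zinc-finger factor needed to form the primitive endoderm, had group means of 1.68 to 5.45 TPM in 2-cell embryos, 19.9 to 51.7 TPM in 4-cell embryos, 57.5 to 92.8 TPM in 8-cell embryos, 73.9 to 110 TPM in morulae and 30.7 to 102 TPM in blastocysts. Gata4, a related factor of the later primitive endoderm, had the opposite course. Its group means were 27.3 to 176 TPM in 2-cell embryos, 106 to 152 TPM in 4-cell embryos and 108 to 136 TPM in 8-cell embryos, but 4.29 to 8.52 TPM in morulae and 1.26 to 14.4 TPM in blastocysts. The group means of Gata4 up to the 8-cell stage and from the morula on do not overlap.

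Sox17 and Sox7, the SOX factors of the maturing lineage, were near 0 until the blastocyst. Sox17 group means were at most 0.963 TPM in 2-cell embryos and 0.194 TPM in morulae, and 3.84 to 25 TPM in blastocysts, where 66.7% of 420 embryos reached 1 TPM. Sox7 stayed at 0.0746 to 3.98 TPM in blastocyst groups, and 21% of blastocysts reached 1 TPM. Sox7 therefore passed the filter on low values only in blastocyst cohorts 4 and 5. Pdgfra, the receptor for platelet-derived growth factor A, had group means of 0.673 to 1.18 TPM in 4-cell embryos, 2.45 to 2.56 TPM in 8-cell embryos, 2.51 to 4.48 TPM in morulae and 1.1 to 15.6 TPM in blastocysts.

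The uptake and matrix genes had their highest group means at the blastocyst stage. Dab2, an endocytic adaptor, was at 55.6 to 73.4 TPM in 2-cell embryos, 6.44 to 10.5 TPM in 4-cell embryos, 33 to 37 TPM in 8-cell embryos, 56.1 to 88.1 TPM in morulae and 186 to 326 TPM in blastocysts. It thus had the highest level of the 10 genes in every blastocyst group. Lrp2 (megalin), the endocytic receptor that binds the DAB2 adaptor, was at most 0.643 TPM in 4-cell groups, 5.36 to 7.02 TPM in 8-cell embryos, 3.8 to 9.61 TPM in morulae and 15.6 to 159 TPM in blastocysts. Sparc, a secreted collagen-binding glycoprotein, had group means of 2.76 to 3.87 TPM in morulae and 25.4 to 102 TPM in blastocysts. Col4a1, the alpha1 chain of collagen IV, had group means of 4.03 to 8.45 TPM in morulae and 3.45 to 41.8 TPM in blastocysts, so its group means at these stages overlap. Lama1, the alpha1 chain of the laminin of this membrane, was at most 0.128 TPM in morula groups and at 2.11 to 18.1 TPM in blastocyst groups.

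**Figure D1:**
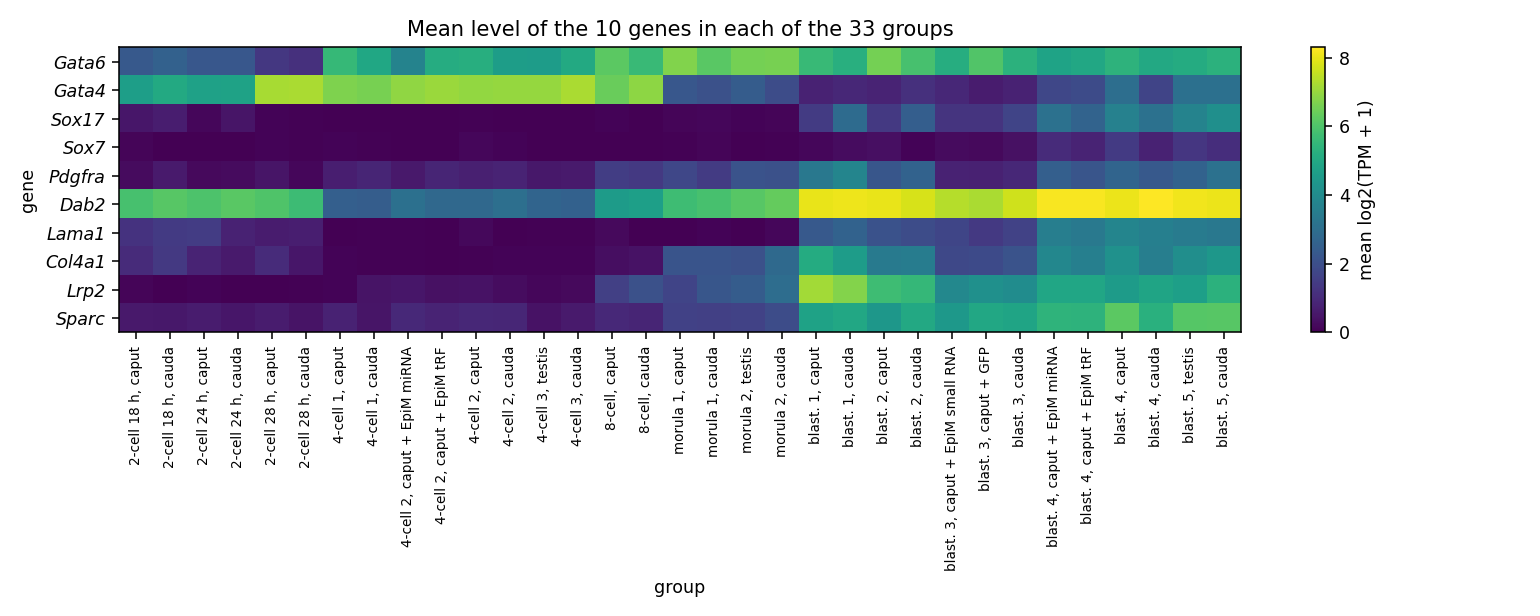
Mean log2(TPM + 1) of the 10 genes (rows) in the 33 groups (columns, by stage and cohort), with the colour scale at the right. Gata4 is bright in the 2-cell to 8-cell columns and dark from the morula on, while Dab2, with group means of 186 to 326 TPM, is brightest in the blastocyst columns.

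Blastocyst cohorts differed from each other for the same kind of sperm, as the cauda embryos show. Lrp2 averaged 118 ± 49.5 TPM in cauda blastocysts of cohort 1 (SD, n = 42) and 18.6 ± 11.3 TPM in those of cohort 3 (n = 39). Col4a1 averaged 27.5 ± 15.5 TPM in cauda blastocysts of cohort 1 and 4.06 ± 3.01 TPM in those of cohort 3. Gata4 averaged 1.35 ± 1.74 TPM in cauda blastocysts of cohort 1 and 14.4 ± 13.3 TPM in those of cohort 5 (n = 29). Lrp2 was thus highest in cohort 1, and the late factor Gata4 in cohort 5. Cohort and table cannot be told apart here, so comparisons below stay within a table.

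In morulae, Gata6 was the member called between caput and cauda sperm, and it was higher with caput sperm. Its levels were 60 TPM (lowest), 97.7 TPM (median) and 198 TPM (highest) in 29 caput morulae, against 37.9, 68 and 130 TPM in 31 cauda morulae. The groups overlapped, and 27 of 29 caput morulae lay above the cauda median. The difference was 0.56 ± 0.11 (log2, SE, adjusted p = 0.00191, limma), and caput morulae were higher in 4 of 4 sessions. The session means of Gata6 were 91.7, 126, 97.4 and 123 TPM in caput morulae, against 74.1, 74.4, 69 and 78 TPM in cauda morulae. Without session day424, the difference was 0.49 (adjusted p = 0.0759), and with session means in place of embryos it was 0.56 (adjusted p = 0.224), so both ended the call.

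No other member was called in these morulae. Of the 10 genes 7 passed the filter and 1 was called, Gata6, where 0.859% of 11519 tested genes were called. The median difference of the 7 was 0.03, against -0.05 over all genes tested. Pdgfra averaged 3.08 ± 2.51 TPM in caput and 2.51 ± 2.72 TPM in cauda morulae, a difference of 0.32 ± 0.24 that was above 0 in 4 of 4 sessions (adjusted p = 0.845, limma). Gata4 averaged 7.58 ± 10.3 TPM in caput and 4.42 ± 4.23 TPM in cauda morulae (0.18 ± 0.34, adjusted p = 0.978, limma). Dab2 averaged 56.1 ± 21.6 TPM in caput and 65.3 ± 27.7 TPM in cauda morulae (-0.15 ± 0.17, adjusted p = 0.94). Sox17, Sox7 and Lama1, all at most 0.194 TPM on average, could not be compared at this stage.

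With testis sperm Gata6 was not called in the second morula cohort. Gata6 was at 46.6, 96.2 and 219 TPM (lowest, median, highest) in 34 testis morulae, against 35, 109 and 207 TPM in 34 cauda morulae. The ranges overlapped nearly throughout, and the difference was -0.05 ± 0.13 (adjusted p = 0.893, limma). None of the 7 members tested was called, where 1.58% of 11790 genes were, and 1 had an unadjusted p under 0.05. That gene was Col4a1, with 4.15 ± 3.08 TPM in testis and 8.45 ± 6.69 TPM in cauda morulae. Its difference of -0.78 ± 0.26 (adjusted p = 0.103) was below 0 in 4 of 4 sessions, and it passed the threshold with the number of genes at 1 TPM as a covariate (-0.85, adjusted p = 0.0258) and without the libraries with few genes (-0.82, adjusted p = 0.0495). Testis and caput sperm were not used in the same table, so their differences from cauda sperm were not compared by a test.

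**Figure D2:**
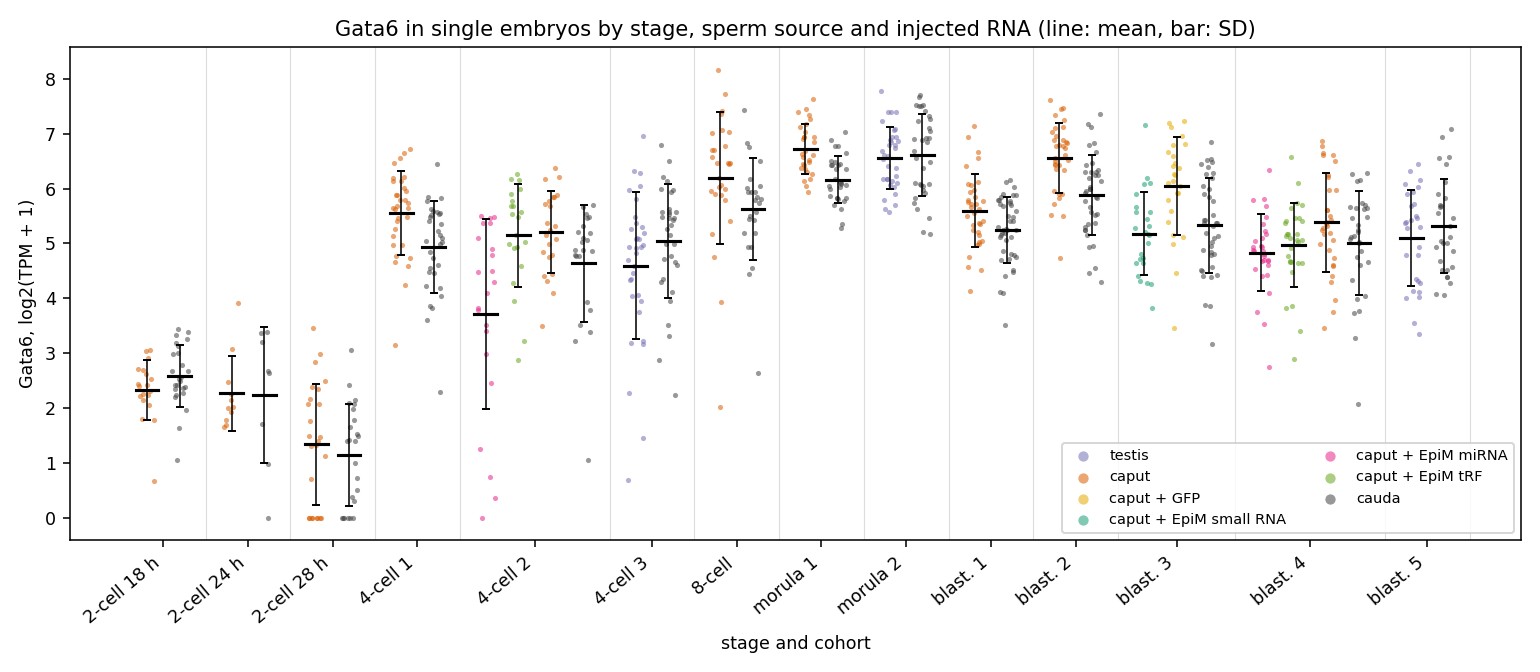
Gata6 as log2(TPM + 1) in each of 933 embryos (points), by stage and cohort on the x axis, with the mean (line) and SD (bar) of each group and colours for sperm source and injected RNA. Caput morulae (mean 110 TPM) sit above cauda morulae (mean 73.9 TPM), and the miRNA-injected 4-cell embryos (mean 19.9 TPM) reach down to 0.

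In blastocysts, Gata6 was above cauda in each of the 4 comparisons with caput sperm, but below the threshold in all of them. In cohort 1 it was at 16.5, 48.5 and 140 TPM (lowest, median, highest) in 35 caput blastocysts, against 10.4, 37.3 and 70.7 TPM in 42 cauda blastocysts. The groups overlapped, 24 caput embryos lay above the cauda median, and the difference was 0.47 ± 0.15 (adjusted p = 0.0629, limma). It passed the threshold without session day210 (0.68, adjusted p = 0.0412), without the libraries with few genes (0.52, adjusted p = 0.0294), after rescaling of the libraries (0.45, adjusted p = 0.0424) and with the number of genes at 1 TPM as a covariate (0.46, adjusted p = 0.044).

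In cohort 2 Gata6 was at 25.7, 102 and 195 TPM in 34 caput blastocysts, against 18.7, 61.2 and 163 TPM in 39 cauda blastocysts. The ranges overlapped, and 27 of the caput embryos lay above the cauda median. The difference was 0.54 ± 0.15 (adjusted p = 0.0863, limma), with caput higher in 5 of 6 sessions, and it passed without session day628 (0.62, adjusted p = 0.0296), which holds 1 caput embryo, and without the session term (0.68, adjusted p = 0.0207). In cohort 4 Gata6 was at 9.96, 39.4 and 116 TPM in 32 caput blastocysts, against 3.2, 34.2 and 77.1 TPM in 31 cauda blastocysts, which overlapped broadly. The difference there was 0.34 ± 0.18 (adjusted p = 0.48).

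In cohort 3 the caput embryos had received GFP and the cauda embryos nothing, so sperm source and injection cannot be told apart. Gata6 was at 10.0, 72.2 and 149 TPM in 26 GFP-injected caput blastocysts, against 7.97, 40.3 and 114 TPM in 39 cauda blastocysts. The ranges overlapped, and GFP-injected embryos had the higher mean in 5 of 5 sessions. The difference was 0.69 ± 0.21 (adjusted p = 0.112, limma), and it passed after rescaling (0.70, adjusted p = 0.0461), with the covariate (0.75, adjusted p = 0.0111), without the libraries with few genes (0.87, adjusted p = 0.015) and without session day204and205 (0.84, adjusted p = 0.0315). With testis sperm, in cohort 5, Gata6 was at 9.24, 39.4 and 86.1 TPM in 28 blastocysts, against 15.6, 33.9 and 135 TPM in 29 cauda blastocysts, and the difference was -0.21 ± 0.20 (adjusted p = 0.993).

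In caput blastocysts of cohort 1 the called member was Sox17, which was lower than in cauda blastocysts. It was at 0, 1.21 and 60.1 TPM (lowest, median, highest) in 35 caput blastocysts, against 0, 9.32 and 79.5 TPM in 42 cauda blastocysts. Both groups held embryos at 0 and above 60 TPM, and 30 of 35 caput embryos were below the cauda median. The difference was -1.46 ± 0.42 (adjusted p = 0.0462, limma), and caput embryos had the lower mean in 4 of 6 sessions. Session day421 held 1 caput and 1 cauda embryo. The session means of Sox17 ranged over 1.21 to 12.8 TPM in caput embryos, against 0 to 25.7 TPM in cauda embryos.

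This Sox17 call was close to the threshold. It ended when each of 5 sessions was left out, at -1.56 without day210 (adjusted p = 0.0784), -1.33 without day317 (adjusted p = 0.127), -1.33 without day3315 (adjusted p = 0.146), -1.46 without day420 (adjusted p = 0.0511) and -1.30 without day512 (adjusted p = 0.259). It also ended with a pseudocount of 0.1 (-2.21, adjusted p = 0.0912), with no filter on low values (adjusted p = 0.105), with no session term (-1.44, adjusted p = 0.0954), with session means in place of embryos (-0.98, adjusted p = 0.537) and without the libraries with few genes (-1.44, adjusted p = 0.0589). In cohort 2 Sox17 averaged 4.67 ± 9.77 TPM in caput and 9.78 ± 13.8 TPM in cauda blastocysts, and the difference of -1.14 ± 0.45 missed the threshold (adjusted p = 0.229, limma). In cohort 3 it averaged 6.1 ± 18.7 TPM in GFP-injected caput and 5.22 ± 7.41 TPM in cauda blastocysts (-0.44 ± 0.42, adjusted p = 0.643). In cohort 4 it averaged 21.8 ± 19.8 TPM in caput and 17.5 ± 17.4 TPM in cauda blastocysts, on the other side of 0 (0.42 ± 0.51, adjusted p = 0.835).

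Sox17 was the only member called between caput and cauda blastocysts. In cohort 1, 1 of 9 members tested was called, where 2.12% of 12200 genes were. In cohort 2, 0 of 9 members were called by limma and 3 had an unadjusted p under 0.05 (Gata6, Sox17 and Sparc), where 0.28% of 12154 genes were called. In cohort 3, 0 of 9 were called and 2 had an unadjusted p under 0.05 (Gata6 and Dab2), where 0.455% of 11648 genes were called. In cohort 4, 0 of 10 were called and 2 had an unadjusted p under 0.05 (Gata4 and Sparc), where 1.84% of 12098 genes were called. The median of all genes tested was itself shifted by 0.13 in cohort 2, against which the 9 members had a median of -0.13.

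Cohort 4 was the table with the highest median difference of the members between caput and cauda sperm, 0.38 against 0.07 over all genes tested, with 8 of 10 above 0. Gata4 was at 0, 6.84 and 66.8 TPM (lowest, median, highest) in caput blastocysts, against 0, 2.04 and 21.7 TPM in cauda blastocysts. Its difference was 1.21 ± 0.44 (adjusted p = 0.172, limma). Sparc was at 2.88, 78.3 and 283 TPM in caput blastocysts, against 1.58, 43.5 and 263 TPM in cauda blastocysts, and its difference of 0.97 ± 0.39 was above 0 in 6 of 6 sessions (adjusted p = 0.254). Both genes overlapped between the groups and neither passed the threshold. Col4a1 averaged 24.6 ± 21.3 TPM in caput and 17.1 ± 14.3 TPM in cauda blastocysts (0.68 ± 0.35, adjusted p = 0.448). Sox7 averaged 3.98 ± 6.56 TPM in caput and 1.51 ± 2.83 TPM in cauda blastocysts (0.61 ± 0.31, adjusted p = 0.434).

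The matrix and uptake genes had other values in the other cohorts. In cohort 1 Col4a1 was at 5.92, 40 and 82.4 TPM in caput blastocysts, against 4.87, 23.3 and 64.1 TPM in cauda blastocysts, and was above cauda in 6 of 6 sessions (0.66 ± 0.22, adjusted p = 0.0846, limma). It passed only with the number of genes at 1 TPM as a covariate (0.64, adjusted p = 0.0498). Lrp2 in the same embryos was at 30.1, 139 and 428 TPM in caput blastocysts, against 36.7, 118 and 214 TPM in cauda blastocysts, and was also above cauda in 6 of 6 sessions (0.46 ± 0.17, adjusted p = 0.114). Of these sessions, day421 held 1 caput and 1 cauda embryo. In cohort 2 Col4a1 averaged 12.6 ± 8.07 TPM in caput and 12.5 ± 7.69 TPM in cauda blastocysts (-0.13 ± 0.25). Lrp2 averaged 57.7 ± 26.9 TPM in caput and 50.1 ± 23.4 TPM in cauda blastocysts of cohort 2 (0.24 ± 0.16). Whether the cohorts differ was not tested. Sparc in cohort 2 averaged 25.4 ± 16.7 TPM in caput and 34.7 ± 16.4 TPM in cauda blastocysts, and its difference of -0.59 ± 0.23 (adjusted p = 0.22) was on the other side of 0 from that of cohort 4.

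Dab2 was not called, with differences of -0.00 ± 0.12, 0.25 ± 0.15 and -0.15 ± 0.11 between caput and cauda blastocysts of cohorts 1, 2 and 4. In cohort 3 it averaged 186 ± 107 TPM in GFP-injected caput and 229 ± 97.4 TPM in cauda blastocysts, and was lower in 5 of 5 sessions (-0.61 ± 0.23, adjusted p = 0.188, limma). That difference passed with the number of genes at 1 TPM as a covariate (-0.54, adjusted p = 0.0475). Lama1 averaged 5.75 ± 6.49 TPM in caput and 6.95 ± 6.34 TPM in cauda blastocysts of cohort 1 (-0.16 ± 0.25). Pdgfra averaged 11.5 ± 7.55 TPM in caput and 15.6 ± 9.9 TPM in cauda blastocysts of cohort 1 (-0.24 ± 0.22), without a call.

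In cohort 5 all 10 members lay below 0 between testis and cauda sperm after adjustment for session, and none was called. limma called 0 of 12062 genes (0%), and 0 members had an unadjusted p under 0.05. The median difference was -0.29, against -0.07 over all genes tested. Sox17 averaged 17.3 ± 12.6 TPM in testis and 25 ± 17.5 TPM in cauda blastocysts (-0.29 ± 0.46, adjusted p = 0.994). Only 3 sessions held both groups, and the log2 mean of each gene was lower with testis sperm in 2 of them and higher in the other. The means of TPM could differ in sign, as for Gata6, which had 18.8, 43.6 and 45.2 TPM with testis sperm, against 17.7, 35.4 and 76 TPM with cauda sperm.

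**Figure D3:**
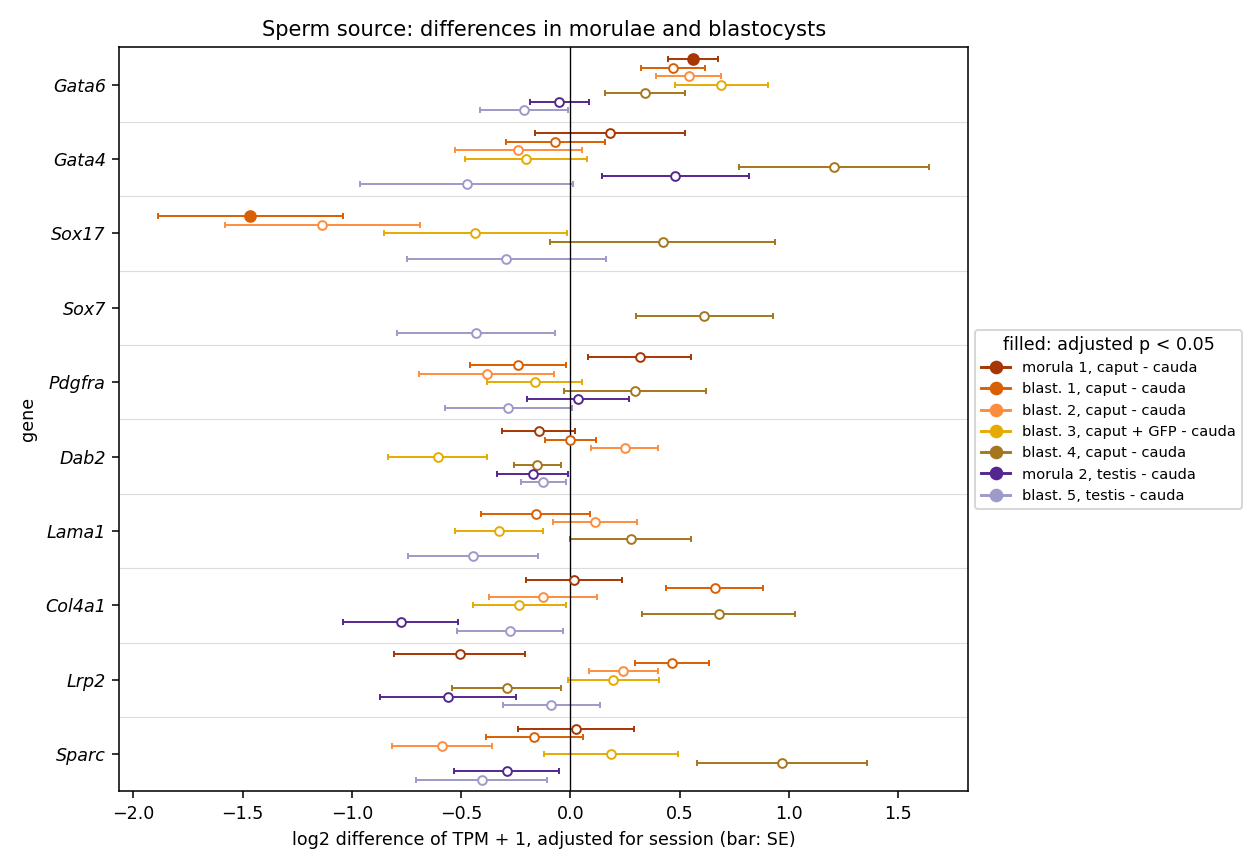
Difference in log2(TPM + 1), adjusted for session, with its SE, of each member (rows) between caput or testis sperm and cauda sperm in morulae and blastocysts, with filled points at an adjusted p under 0.05. Filled points are Gata6 in caput morulae (0.56) and Sox17 in caput blastocysts of cohort 1 (-1.46).

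The injection experiments compared caput embryos given an EpiM RNA with caput embryos given GFP, a different EpiM RNA or no injection. Where the controls had no injection, the RNA and the act of injection cannot be told apart. Gata6 was again the called member, now lower in the injected embryos. In blastocyst cohort 3 it was at 13.2, 35.2 and 141 TPM (lowest, median, highest) in 25 embryos injected with EpiM small RNA, against 10.0, 72.2 and 149 TPM in 26 embryos injected with GFP. The ranges overlapped, although 23 of 25 EpiM embryos lay below the GFP median. Gata6 fell by 0.95 on the log2 scale (SE 0.25, adjusted p = 0.0482, limma).

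This Gata6 call in cohort 3 was narrow. The session means were 21.8, 40.7, 40 and 94 TPM with EpiM small RNA, against 71.6, 95, 65.5 and 88.2 TPM with GFP, so EpiM embryos were lower in 3 of 4 sessions. The call ended without session day204and205 (-0.71, adjusted p = 0.54), day207 (-0.81, adjusted p = 0.625) or day211 (-0.97, adjusted p = 0.0917), where limma was again used. It also ended with a pseudocount of 0.1 (adjusted p = 0.0641), with no filter on low values (adjusted p = 0.12), with no session term (adjusted p = 0.0654) and with session means in place of embryos (adjusted p = 1). The same GFP embryos entered the comparison with cauda sperm, in which Gata6 had the difference of 0.69, and the 2 differences are therefore not independent.

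The other members had no call in this comparison. Of 9 tested, 1 was called, Gata6, where 0.466% of 11384 genes were. The other 8 lay above 0, with a median of 0.14 over the 9 members and 0.00 over all genes. Dab2 averaged 237 ± 160 TPM with EpiM small RNA and 186 ± 107 TPM with GFP (0.14 ± 0.26, adjusted p = 1, limma). Gata4 averaged 1.87 ± 3.39 TPM with EpiM small RNA and 1.57 ± 4.3 TPM with GFP (0.39 ± 0.32, adjusted p = 1).

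In blastocyst cohort 4 Gata6 was at 5.72, 28.1 and 80.3 TPM in 30 embryos injected with EpiM miRNA, against 9.96, 39.4 and 116 TPM in 32 uninjected caput embryos. The cohort had no GFP-injected group, so an effect of the injection itself was not tested for Gata6 or any other gene. The ranges overlapped, and 24 of 30 miRNA-injected embryos lay below the median of the uninjected ones. Gata6 fell by 0.68 (log2, SE 0.19, adjusted p = 0.0188, limma), with lower log2 means in the injected embryos in 5 of 6 sessions. Sessions day523 and day531 held 1 injected embryo each. In session day522 Gata6 averaged 37.4 TPM in 11 injected and 89.5 TPM in 6 uninjected embryos. Without that session the difference was -0.35 (adjusted p = 0.484), without day530 it was -0.64 (adjusted p = 0.0634) and without day605 it was -0.84 (adjusted p = 0.0947). The call also ended with no session term (-0.55, adjusted p = 0.172), after rescaling (-0.61, adjusted p = 0.0505), with session means in place of embryos (-0.52, adjusted p = 0.511) and with the number of genes at 1 TPM as a covariate (-0.57, adjusted p = 0.0698). That number had a median of 10974 in miRNA-injected and 11051 in uninjected caput embryos, and its part in the result was not tested otherwise.

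With EpiM tRF, Gata6 was at 6.39, 32.8 and 94.9 TPM in 30 blastocysts, which overlapped both other groups. The difference from uninjected caput embryos was -0.33 ± 0.18 (adjusted p = 0.824, limma), and that between miRNA and tRF was -0.35 ± 0.19 (adjusted p = 0.784). The fall with miRNA is thus not shown to differ from the value with tRF.

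The other members of cohort 4 lay mostly below the uninjected caput embryos after either injection. With miRNA 1 of 10 members was called, where 3.05% of 12113 genes were, and the median difference was -0.49, against -0.06 over all genes. With tRF 0 of 10 were called and 3 had an unadjusted p under 0.05 (Gata4, Col4a1 and Sparc), where limma called 0% of 12106 genes, and the median was -0.55, against -0.05. Between miRNA and tRF 0 of 10 were called and 0 had an unadjusted p under 0.05, where 1.48% of 11968 genes were called. The comparisons of uninjected caput embryos with miRNA, with tRF and with cauda sperm share the uninjected caput embryos. In these embryos Gata4 and Sparc had their highest group means of the cohort.

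Gata4 averaged 6.18 ± 8.78 TPM with miRNA and 7.34 ± 10.5 TPM with tRF, against 13.8 ± 15.2 TPM in uninjected caput embryos. The differences were -1.32 ± 0.45 with miRNA (adjusted p = 0.0983, limma) and -0.98 ± 0.44 with tRF (adjusted p = 0.805). The miRNA difference passed the threshold with a pseudocount of 0.1 (-2.53, adjusted p = 0.0436) and without session day522 (-1.83, adjusted p = 0.0292). Sparc averaged 64.8 ± 55 TPM with miRNA and 63.3 ± 62.5 TPM with tRF, against 102 ± 74.7 TPM in uninjected caput embryos, without a call (-0.81 ± 0.40 and -0.78 ± 0.39). Cauda embryos of the cohort, which received no injection, averaged 4.77 ± 6.56 TPM for Gata4 and 65.5 ± 62.6 TPM for Sparc. Dab2 and Lrp2 lay on the other side of 0 with both RNAs, at 0.20 ± 0.11 and 0.12 ± 0.26 with miRNA, and at 0.09 ± 0.11 and 0.23 ± 0.25 with tRF.

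**Figure D4:**
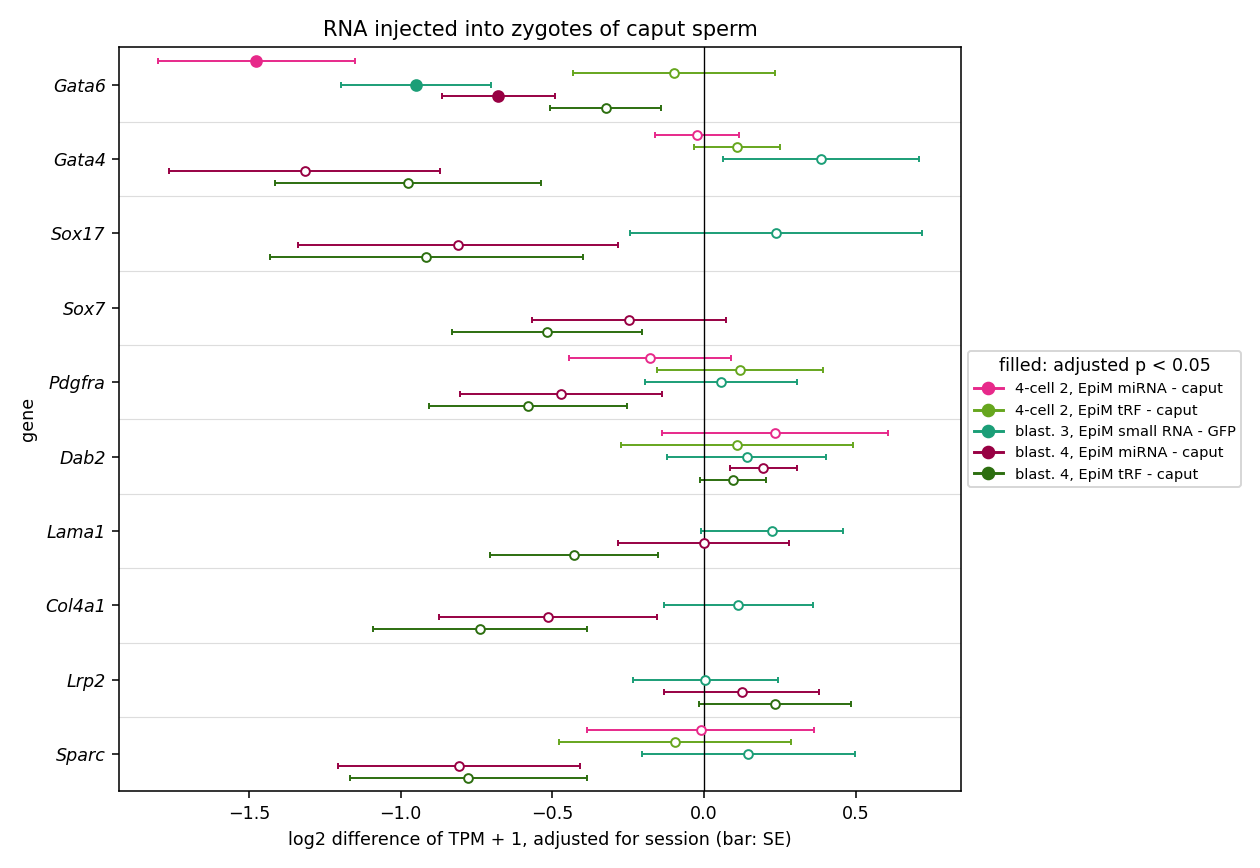
Difference in log2(TPM + 1), adjusted for session, with its SE, of each member (rows) between embryos of caput sperm with an injected RNA and their uninjected or GFP-injected controls. The filled points, at an adjusted p under 0.05, are Gata6 with EpiM miRNA in 4-cell embryos (-1.48), EpiM small RNA in blastocysts (-0.95) and EpiM miRNA in blastocysts (-0.68).

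At the 4-cell stage Gata6 was likewise the called member. In cohort 2 it was at 0, 17.4 and 44.4 TPM in 22 embryos injected with EpiM miRNA, at 6.33, 43.6 and 76 TPM in 21 embryos injected with EpiM tRF, and at 10.2, 37 and 81.8 TPM in 23 uninjected caput embryos. The miRNA-injected embryos reached lower than both other groups but overlapped them. The tRF embryos were injected as well, but no GFP-injected group was present. Against uninjected embryos, RNA and injection therefore cannot be told apart. The difference was -1.48 ± 0.33 from uninjected embryos (adjusted p = 0.00346, limma) and -1.38 ± 0.34 from tRF-injected embryos (adjusted p = 0.0151), while tRF and uninjected embryos differed by -0.10 ± 0.33 (adjusted p = 0.952).

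A single session carried much of the Gata6 difference in 4-cell embryos. In session day726 Gata6 averaged 5.76 TPM in 7 miRNA-injected embryos, 24.5 TPM in 6 tRF-injected embryos and 46 TPM in 7 uninjected embryos. In the other 3 sessions it averaged 27.5, 30.9 and 14.8 TPM with miRNA, against 38.5, 37.2 and 39.5 TPM in uninjected embryos. Without day726 the difference from uninjected embryos was -0.54 (adjusted p = 0.585, limma) and that from tRF was -0.85 (adjusted p = 0.631), and the difference from tRF also lost its call without day713 (-1.39, adjusted p = 0.263). With session means in place of embryos the adjusted p was 0.505 against uninjected embryos.

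Of 5 members tested in these 4-cell embryos, 1 was called for miRNA against uninjected caput (1.26% of 11673 genes), 1 for miRNA against tRF (0.822% of 11436 genes) and 0 for tRF against caput (0.00861% of 11608 genes). No member had an unadjusted p under 0.05 for tRF against caput. Gata4, abundant at this stage, was not called, with 126 ± 38.5 TPM with miRNA, 134 ± 29.5 TPM with tRF and 133 ± 47.6 TPM in uninjected caput embryos.

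In 4-cell and 8-cell embryos Gata6 also lay above cauda in caput embryos, short of the threshold. In 4-cell cohort 1 it was at 7.82, 49.7 and 105 TPM in 32 caput embryos, against 3.89, 32.7 and 86.7 TPM in 32 cauda embryos, and was higher in 4 of 4 sessions. The difference of 0.62 ± 0.19 had an adjusted p of 0.1 (limma), and 0.0497 without session day426 (0.69). Of 5 members tested there, 0 were called and 1, Gata6, had an unadjusted p under 0.05, where 1.12% of 11597 genes were called. In 4-cell cohort 2 Gata6 averaged 40.6 ± 19.6 TPM in caput and 28.8 ± 13.9 TPM in cauda embryos (0.55 ± 0.32, adjusted p = 0.605), and 0 of 5 members were called, with 0 at an unadjusted p under 0.05, where 0.573% of 11511 genes were called.

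In 8-cell embryos Gata6 was at 3.07, 86.9 and 287 TPM in 28 caput embryos, against 5.26, 54.5 and 172 TPM in 25 cauda embryos. Only 3 sessions held both groups, and caput embryos were higher in each, with 132, 91.5 and 153 TPM against 48.5, 43.8 and 109 TPM in cauda embryos. The difference was 0.93 ± 0.36 (adjusted p = 0.973, limma). limma called 0 of 6 members, of which 1, Gata6, had an unadjusted p under 0.05, and 0% of 11774 genes. With testis sperm, Gata6 in 4-cell cohort 3 averaged 32.3 ± 25.6 TPM, against 39.6 ± 24.1 TPM in cauda embryos (-0.46 ± 0.28, adjusted p = 0.714). Of 4 members tested there 0 were called and 1, Gata4, had an unadjusted p under 0.05, where 0.0174% of 11471 genes were called. Gata4 averaged 139 ± 51.4 TPM in testis and 152 ± 24 TPM in cauda embryos (-0.26 ± 0.13, adjusted p = 0.664).

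Within the 2-cell stage, members changed between 18 h and 28 h, and none was called between sperm sources. Gata4 was at 35.4, 172 and 406 TPM (lowest, median, highest) in 25 caput embryos at 28 h, against 3.33, 28.8 and 48.1 TPM in 19 caput embryos at 18 h. It was at 47.5, 140 and 349 TPM in 24 cauda embryos at 28 h, against 8.71, 33.7 and 58.5 TPM in 25 cauda embryos at 18 h. The times overlapped little, and Gata4 rose by 2.57 ± 0.25 in caput embryos (log2, SE, adjusted p = 4.99e-17, limma) and by 2.22 ± 0.23 in cauda embryos (adjusted p = 1.94e-15).

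Gata6 fell over the same hours. It averaged 2.33 ± 2.57 TPM at 28 h, against 4.32 ± 1.67 TPM at 18 h, in caput embryos (-1.02 ± 0.27, adjusted p = 0.00044, limma). In cauda embryos it averaged 1.68 ± 1.78 TPM at 28 h, against 5.45 ± 2.33 TPM at 18 h (-1.46 ± 0.25, adjusted p = 1.35e-07). The 2 GATA factors thus moved in opposite directions. Lama1 fell in both, by 0.60 in caput embryos (adjusted p = 0.0107, limma) and by 0.70 in cauda embryos (adjusted p = 0.00121), at group means of 0.804 to 1.81 TPM. Col4a1 fell by 0.90 (adjusted p = 0.000188) and Dab2 by 0.47 (adjusted p = 0.00745) in cauda embryos.

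Calls at the 2-cell stage have to be read against the many genes that changed with time. Of 6 members tested in caput embryos 3 were called, where 68.9% of 13537 genes were, and of 5 in cauda embryos 5 were called, where 72.3% of 13249 genes were. The median of all genes shifted by -0.14 in cauda embryos. The fall of Lama1 in caput embryos lost its call without session day114 (-0.56, adjusted p = 0.0665, limma) or day122 (-0.47, adjusted p = 0.116), and that of Dab2 in cauda embryos without day122 (-0.32, adjusted p = 0.126) or day126 (-0.45, adjusted p = 0.0506).

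Between caput and cauda 2-cell embryos no member was called. Gata6 averaged 4.32 TPM in caput and 5.45 TPM in cauda embryos at 18 h (-0.23 ± 0.27), 4.45 and 5.1 TPM at 24 h (0.02 ± 0.40), and 2.33 and 1.68 TPM at 28 h (0.21 ± 0.25). At 18 h 0 of 7 were called and 0 had an unadjusted p under 0.05, where limma called 0% of 12899 genes. At 24 h 0 of 6 were called and 1, Lama1, had an unadjusted p under 0.05, where 0.00746% of 13400 genes were called. At 28 h 0 of 6 were called and 1, Col4a1, had an unadjusted p under 0.05, where 0.0759% of 13179 genes were called. The test of whether the difference between caput and cauda changed between 18 h and 28 h called 0 of 8 members and 0% of 14969 genes, with an unadjusted p under 0.05 for Pdgfra, Dab2 and Col4a1. All 8 members lay above 0 in this test, with a median of 0.39, against 0.10 over all genes tested.

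Other genes of the lineage were read in the morula and blastocyst comparisons. The wider lists hold 8 further transcription factors, 12 genes of receptors and signalling, 13 of the basement membrane and its processing and 11 of uptake and transport. Over these comparisons the called gene among them was Fgfr1, an FGF receptor of the inner cell mass, in cohort 4. It was 1 of 7 receptor and signalling genes tested there, where 1.84% of all genes were called between caput and cauda, 3.05% between miRNA and uninjected caput and 1.48% between miRNA and tRF. It averaged 15.5 ± 6.61 TPM in caput and 9.06 ± 7.12 TPM in cauda blastocysts, and rose by 0.89 ± 0.23 (adjusted p = 0.0175, limma). It averaged 6.87 ± 4.51 TPM with miRNA and 10.7 ± 5.26 TPM with tRF. Both of these groups were injected, unlike the caput and cauda groups, and injection alone was not tested. With miRNA it lay below uninjected caput embryos by -1.28 ± 0.24 (adjusted p = 5.27e-05), in 6 of 6 sessions, and below tRF-injected embryos by -0.87 ± 0.24 (adjusted p = 0.036). Sessions day523 and day531 held 1 miRNA-injected embryo each.

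The Fgfr1 calls differed in how they held. That of miRNA against uninjected caput ended only with session means in place of embryos (-1.25, adjusted p = 0.0552, limma) among the alternatives run. That of caput against cauda ended without session day523 (0.88, adjusted p = 0.0594), day530 (0.82, adjusted p = 0.0992), day605 (0.85, adjusted p = 0.196) or day606 (0.81, adjusted p = 0.111). That of miRNA against tRF ended without day522 (-0.79, adjusted p = 0.14), day530 (-0.85, adjusted p = 0.0977), day531 (-0.81, adjusted p = 0.083), day605 (-0.99, adjusted p = 0.383) or day606 (-0.86, adjusted p = 0.0609).

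In cohort 4 the medians of the wider lists lay on the same side of 0 as that of the members. Between caput and cauda blastocysts of cohort 4, the 8 factors tested had a median of 0.19, the 7 receptor and signalling genes 0.36, the 13 basement membrane genes 0.30 and the 8 uptake genes 0.39, against 0.07 over all genes. With miRNA these medians were -0.27, -0.41, -0.30 and -0.32, against -0.06. With tRF they were -0.27, -0.41, -0.26 and -0.49, against -0.05. The epiblast genes lay on the same side: the 14 tested had a median of 0.19 between caput and cauda (12 above 0), -0.39 with miRNA (0 above 0) and -0.37 with tRF (3 above 0). The medians of the 14 trophectoderm genes were 0.09, 0.00 and 0.05. In caput morulae of the first cohort, where Gata6 rose, the 5 factors tested had a median of -0.10, the 7 receptor genes 0.00, the 9 basement membrane genes -0.08 and the 7 uptake genes -0.21, against -0.05.

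Markers of the neighbouring lineages were read beside the Gata6 result in morulae. Of all genes 0.859% were called there. Of 14 epiblast genes 12 were tested, with a median of -0.03, and 1 was called, Klf2, a pluripotency factor, at 59.1 ± 40.1 TPM in caput and 26.8 ± 21 TPM in cauda morulae (1.07 ± 0.22, adjusted p = 0.00177, limma). Its call ended without session day507 (0.83, adjusted p = 0.153). Of 14 trophectoderm genes 11 were tested, with a median of -0.31 (2 of 11 above 0) against -0.05 over all genes, and 1 was called, Gata3, a trophectoderm factor, at 31.8 ± 29.2 TPM in caput and 52.4 ± 31.3 TPM in cauda morulae (-1.09 ± 0.26, adjusted p = 0.0158). It ended without session day423 (-0.94, adjusted p = 0.239), day424 (-1.003, adjusted p = 0.0689) or day427 (-1.16, adjusted p = 0.0576), and with no filter on low values (adjusted p = 0.0651).

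The summed level of the trophectoderm list ranged over 301 to 1916 TPM in caput and 439 to 1501 TPM in cauda morulae, with medians of 581 and 769 TPM. That of the epiblast list ranged over 1889 to 3379 TPM in caput and 1733 to 3317 TPM in cauda morulae. The list of epididymis and male germ cell genes had a median sum of 0 TPM in both, and 6 of its 12 genes were at 0 in every embryo of each group. That of cumulus and granulosa cell genes had medians of 40 TPM in caput and 43 TPM in cauda morulae. Of its 13 genes, only 3 in caput and 2 in cauda morulae had a mean of 1 TPM or more. In each group 6 of the 13 were at 0 in every embryo. The part of lineage markers in the Gata6 difference was not tested.

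In the second morula cohort, 2 of 12 trophectoderm genes tested were called, where 1.58% of all genes were, and the list's median was -0.47 (3 of 12 above 0), against 0.04 over all genes. Id2 averaged 3.58 TPM in testis and 11.1 TPM in cauda morulae (-1.40, adjusted p = 0.0402, limma), and Dppa1 13.5 TPM in testis and 36.9 TPM in cauda morulae (-1.58, adjusted p = 0.0202). Amhr2, a receptor of granulosa cells, averaged 73.4 TPM in testis and 43.9 TPM in cauda morulae (0.75 ± 0.19, adjusted p = 0.0368). It was 1 of 3 cumulus and granulosa cell genes tested, and the only 1 of the 13 listed with a mean of 1 TPM or more in these groups. These 3 calls were lost without session day619, at -0.99 for Id2 (adjusted p = 0.457), -1.22 for Dppa1 (adjusted p = 0.343) and 0.69 for Amhr2 (adjusted p = 0.279). They were also lost without day623, at -1.46, -1.65 and 0.65, and those of Id2 and Amhr2 without day612, at -1.49 and 0.88.

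The members did not vary as a single unit among blastocysts. Pearson's r was taken across the 420 blastocysts within each of the 5 tables, after removal of group and session means, and averaged. Embryos of a table share library preparation and, because TPM sum to a constant, r is a description. The 45 pairs of members had a median r of 0.29, and 22 pairs exceeded 0.3. Over all pairs of 11307 genes the median was 0.09 and the 95th percentile 0.32.

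The late factors varied together with the receptor and the matrix genes. Gata4 and Sox17 had an r of 0.67, Sox17 and Pdgfra 0.65, Pdgfra and Col4a1 0.63, and Gata4 and Lama1 0.59. Gata6 had an r of 0.12 with Gata4, 0.08 with Sox17, 0.02 with Sox7, 0.20 with Pdgfra, 0.25 with Col4a1, 0.10 with Sparc and -0.03 with Lama1. Its highest r with a member was 0.46, with Lrp2. Lrp2 in turn had an r of 0.41 with Dab2, and -0.04 with Gata4 and -0.07 with Sox17. Set against the label, 7 genes (Gata4, Sox17, Sox7, Pdgfra, Lama1, Col4a1 and Sparc) varied together in these whole blastocysts, with r of 0.26 to 0.67 between them, and Gata6, Dab2 and Lrp2 did not vary with Gata4 and Sox17 beyond 0.13. This division was made after the values were seen, and it was not sharp. Dab2 and Lama1 had an r of 0.29, above the 0.26 of Sox7 and Pdgfra within the 7 genes. In single tables some pairs of the 7 genes fell below 0. The lowest r was -0.07 for Sox7 and Col4a1, -0.03 for Lama1 and Col4a1, -0.02 for Sox7 and Pdgfra, and -0.01 for Pdgfra and Lama1.

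**Figure D5:**
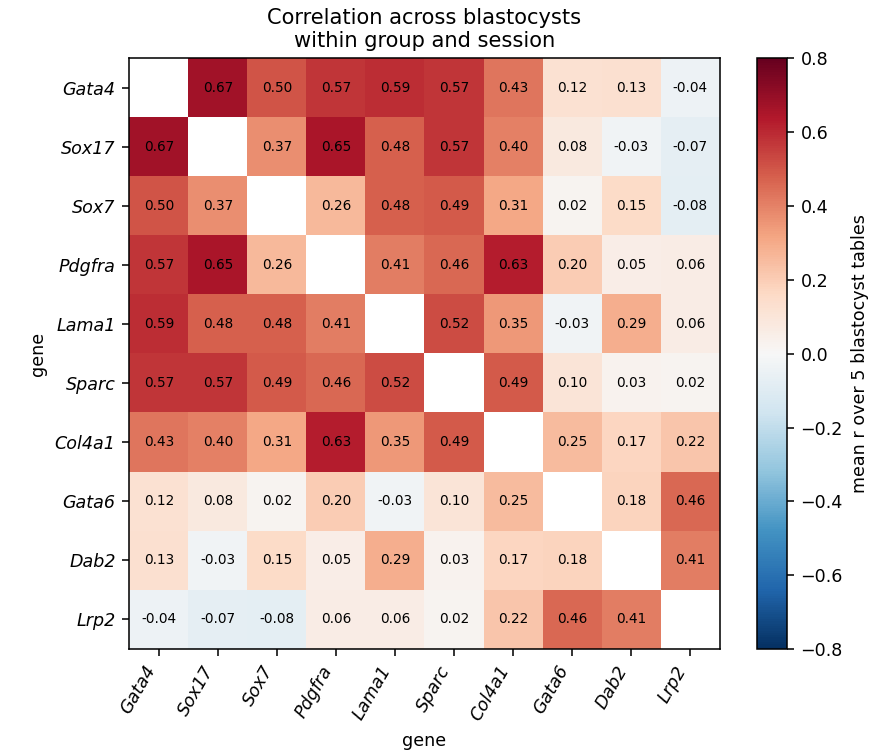
Mean Pearson's r between members (rows and columns) over 5 blastocyst tables, across 420 embryos after removal of group and session means, with the colour scale at the right. Values among Gata4, Sox17, Sox7, Pdgfra, Lama1, Col4a1 and Sparc run from 0.26 to 0.67, while Dab2 reaches 0.29 with Lama1 and Gata6 reaches 0.46 with Lrp2.

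The genes that varied most like each member are given by the same mean r. They come from the same embryos and values as the division above, so they are no test of it. For Col4a1 the closest was Col4a2 (0.82, range 0.70 to 0.92), the gene of the partner chain, whose start lies 21 bases from that of Col4a1 on the opposite strand of chromosome 8. Lamb1, a laminin beta chain, was among the 3 closest to Gata4 (0.59), Pdgfra (0.67), Lama1 (0.55) and Col4a1 (0.66), and Lamc1, a laminin gamma chain, was closest to Lama1 (0.58). Dkk1, a secreted WNT inhibitor, was closest to Gata4 (0.66). P4ha1, which hydroxylates collagen prolines, was near Pdgfra (0.60) and Col4a1 (0.61), as was Epha4 near Pdgfra (0.63). For Sox17 the closest genes were Upp1 (0.62), Utf1 (0.61) and Tubb5 (0.58), and for Lama1 Dkk1 (0.54) was also close.

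Gata6 was closest to Odc1 (0.71), the first enzyme of polyamine synthesis, Stk24 (0.70), a kinase, and Smarca5 (0.69), a chromatin remodeller. Dab2 was closest to Aldh6a1 (0.72), Capza1 (0.70) and Vps41 (0.68), and Lrp2 to Macf1 (0.68), Epas1 (0.64) and Nabp1 (0.62). Sparc was closest to Tfpi (0.62), Tcl1 (0.60) and Zscan10 (0.59). Sox7, which was not tested in all 5 tables, was closest to Rhpn1 (0.51), Amn (0.48) and Tcl1 (0.48).

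Set against lists of lineage genes, Dab2 had a median r of 0.32 with 13 trophectoderm genes and -0.07 with 13 epiblast genes, where its median over all genes was 0.14. Pdgfra had -0.08 with the trophectoderm genes and 0.37 with the epiblast genes, where its median over all genes was 0.07. Gata6 had -0.01 with trophectoderm and 0.18 with epiblast genes, against 0.13 over all genes. With the 12 tested genes of the basement membrane, Col4a1 had a median r of 0.43, Gata4 0.34, Sparc 0.34, Pdgfra 0.31 and Lama1 0.28. Sox17 had 0.26 with them, Sox7, Dab2 and Lrp2 0.22 each, and Gata6 0.21. With the epiblast genes, Sox17 and Sparc had 0.36 each, Col4a1 0.29, Gata4 0.24, Lama1 0.19, Sox7 0.14 and Lrp2 0.06. Sox17, Pdgfra and Sparc thus had a higher median r with the epiblast genes than with the basement membrane genes. With 7 uptake and transport genes Sparc had 0.48, above its value with the epiblast genes, while Sox17 had 0.23 and Pdgfra 0.26. With 6 receptor and signalling genes Sparc had 0.35, Sox17 0.31 and Pdgfra 0.33. With 4 further transcription factors they had 0.08, 0.14 and 0.31.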

How the data were processed

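Single embryos were sequenced by Smart-seq2, per the labels' protocols. The deposited values are TPM in all 12 tables, made by the authors with Bowtie and build mm10, per the submitters' processing notes; versions, counting tool and annotation are not given in the sources used here. Depth is unknown, so precision rests on the embryos. Growth and collection notes give 28 h for every sample, so stage labels were used. Sessions are days in titles or descriptions, which differ for 8 cauda embryos of blastocyst cohort 3 (merged). Per-sample values in 1 further column were not used.

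Each table was fitted with limma 3.58.1 (R 4.3.3) on log2(TPM + 1), all groups together, with fixed effects for group and session, an intensity trend and robust variances, after tests on simulated data. Genes were tested where the number of embryos at 1 TPM was 50% or more of the smaller group's size, and called at a Benjamini-Hochberg adjusted p under 0.05. All 10 members are described, genes of wider lists are named where called in morulae or blastocysts, and the 3 genes most correlated with each member are named, except 1 that is not reported here. Members and lists were chosen with earlier results of these data known. Alternatives were a pseudocount of 0.1, no filter, no session term, session means in place of embryos, the embryo number as a block, rescaled libraries, the number of genes at 1 TPM as a covariate, each session left out and, chosen after seeing the data, no libraries with few genes. Embryos with the same number did not deviate together, so the numbers do not pair them. Figures and summaries used python 3.11.15, pandas 2.3.3, numpy 2.4.6 and matplotlib 3.10.9.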

Additional observations from a re-analysis of the deposited data

Results flagged for a closer look

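In the 8 cauda embryos of the 2-cell stage at 24 h, the highest embryo lay far above the others for 3 members, a different embryo for each gene. The highest Pdgfra value was 2.26 TPM, against 0.13 TPM in the next embryo. The highest Col4a1 value was 4.33 TPM, against 1.95 TPM in the next, and the highest Sparc value was 3.22 TPM, against 0.72 TPM in the next. Only groups of 4 to 10 embryos can be checked in this way, and this was the only such group. In it 9 genes were checked. The cut-off marks about 1 in 20 sets of normally distributed values. Here 6 of the 8 Pdgfra values and 4 of the 8 values each of Col4a1 and Sparc were 0, so that rate does not hold. No called result rests on this group.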

How the results depend on the processing

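Over the genes named with tests, 2282 values were recomputed under the alternatives. Of these, 80 lost a call and 17 gained one, and 31, none of them called, changed sign by more than the SE of the reported difference. The other 2154 kept their side of the threshold, and smaller changes of sign among uncalled values were counted with them. The causes of these changes were not tested. Counts of called members went to 0 with session means in place of embryos in caput morulae, in blastocyst cohort 1, in both called injections of blastocysts and in both called comparisons of 4-cell cohort 2. They went to 0 with no session term in blastocyst cohort 1 and in both called blastocyst injections, with a pseudocount of 0.1 or no filter in blastocyst cohort 1 and for EpiM small RNA, and after rescaling or with the covariate for miRNA in blastocysts. With a pseudocount of 0.1 the miRNA count in blastocysts was 2. In blastocyst cohort 1 it was 2 after rescaling and 3 with the covariate. It went to 1 in testis morulae with the covariate or without libraries with few genes, in blastocyst cohort 2 with no session term, and in GFP-injected caput against cauda after rescaling or without libraries with few genes, and to 2 there with the covariate. With sessions left out in turn, counts ranged from 0 to 1 in caput morulae, in blastocyst cohorts 1, 2 and 3, for miRNA in blastocysts, in 4-cell cohort 1 and for miRNA in 4-cell cohort 2.

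With the embryo number as a replicate block, which does not pair the embryos by the check of their deviations (median r of -0.08 to 0.04 over comparisons), counts went to 0 in blastocyst cohort 1 (Sox17 adjusted p = 0.151, limma), for miRNA in blastocysts (Gata6 adjusted p = 0.0952) and for miRNA against tRF in 4-cell embryos (Gata6 adjusted p = 0.181). Dab2 for tRF in blastocysts changed to -0.11.

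The signs that changed by more than the SE of the reported difference were those of uncalled genes. With no session term these were Sparc (-0.55) and Lrp2 (-0.31) for EpiM small RNA, Dab2 for miRNA against tRF (-0.018), and Dab2 (0.047), Lama1 (0.13) and Sox7 (0.23) in testis blastocysts. With session means in place of embryos they were Lama1 in blastocyst cohort 1 (0.19), Dab2 for miRNA against tRF (-0.091) and Sparc in 4-cell cohort 2 (-0.38), and with the covariate Pdgfra for miRNA in 4-cell embryos (0.14). With sessions left out the differences ranged from -0.33 to 0.41 for Gata4 in caput morulae and from -0.16 to 0.10 for Gata6 in testis morulae. For EpiM small RNA they ranged from -0.25 to 0.46 for Col4a1, -0.28 to 0.39 for Dab2 and -0.10 to 0.39 for Lama1, and for miRNA against tRF from -0.30 to 0.15 for Lrp2. In testis blastocysts they ranged from -0.39 to 0.048 for Dab2, -0.53 to 0.20 for Gata6, -0.76 to 0.11 for Pdgfra and -1.60 to 0.19 for Sox7. In 8-cell embryos Sparc ranged from -0.81 to 0.72, in 4-cell cohort 1 Gata4 from -0.077 to 0.21, and in 4-cell cohort 2 Pdgfra from -0.41 to 0.19. For miRNA in 4-cell embryos the ranges were -0.32 to 0.27 for Gata4, -0.54 to 0.17 for Pdgfra and -0.31 to 0.41 for Sparc, and for tRF -0.42 to 0.32 for Gata6. Dab2 ranged from -0.19 to 0.42 with testis sperm at the 4-cell stage, Sox17 from -0.58 to 0.016 at 18 h, and Sparc at 28 h was -0.06.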
